A study of Arabidopsis thaliana with 30 samples.

Results

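Whole Arabidopsis seedlings of a sextuple uniporter line were compared with wild type seedlings (Col) in 6 of the 30 mRNA libraries of the series, 3 per genotype. They were chosen by where their columns occur. Of the 9 deposited tables, 5 set antimycin A (AA) against solvent within a genotype and 4 set a line against Col, and the 6 libraries here occur in the tables of the first kind and in none of the second. They are called the AA-table arm, and the 6 sextuple and Col libraries of the table of sextuple against Col are called the line-table arm.

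The sextuple seedlings carried lesions in all 6 mitochondrial calcium uniporter (MCU) genes, brought together by crosses of single mutants in the Col-0 background. T-DNA sat in exons of MCU1, MCU3 and MCU4 and in the promoters of MCU2 and MCU6, and the remaining gene was edited by CRISPR/Cas9. It is 1 line, and the study describes it as a knockdown. Col was the wild type Col-0. The overexpressors 2OX, 4OX and 6OX carried MCU2, MCU4 and MCU6 transgenes. All seedlings were 10 days old, had been moved from plates to liquid medium, and by the labels received 50 µM AA for 5 h or DMSO (called CK). The methods add a night of shaking in the dark before treatment and give a shorter time.

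The treatment of the 6 libraries is in conflict between sources. Their sample labels read CK. The columns labelled AA in the AA tables held, read for read, the same values as the columns that the line tables present as untreated, which implies that the libraries here are the ones that got AA. No library was relabelled, and both genotypes of this arm carry the same label, so that the comparison between them does not depend on which reading holds. Which treatment it describes does depend on it.

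Mitochondrial calcium uniporters are inner membrane channels that let calcium into the matrix, and MICU is a calcium-binding regulator of the channel. AA blocks complex III of the respiratory chain, and in Arabidopsis it is known for inducing alternative oxidase, which passes electrons to oxygen without complex III. Plants short of oxygen or respiratory capacity turn to fermentation through pyruvate decarboxylase (PDC) and alcohol dehydrogenase (ADH), and a core set of low-oxygen genes is switched on by ethylene response factors of group VII. Plant cysteine oxidases (PCO) mark these factors for breakdown when oxygen is present.

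The libraries of the 2 genotypes differed in more than genotype. The sextuple libraries held 25.4 to 36.1 M reads (M, 1e6 reads) and the Col libraries 11.8 to 21.5 M. Reads from nuclear ribosomal RNA regions made up 0.271 to 0.293% in sextuple and 1.54 to 6.64% in Col, and reads from the plastid genome 0.0632 to 0.0904% in sextuple and 0.307 to 1.37% in Col. In the line-table arm the ribosomal share was 0.0373 to 0.113% in sextuple and 0.0544 to 0.0693% in Col. All 8 shoot markers had lower means in sextuple, with a median log2 fold change of -0.71 and none called, and their sum was 1592 to 2525 per 1e6 nuclear reads in sextuple and 3451 to 4441 in Col. RBCS1A, a Rubisco gene, made up most of this sum in every library. The root marker sums overlapped, at 670 to 978 in sextuple and 874 to 985.5 in Col, and the flower and seed markers summed to under 10 per 1e6 in every library of both genotypes. What part these differences have in the results was not tested. In bulk seedlings, fewer cells of a type and less RNA per cell cannot be told apart.

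**Figure D1:**
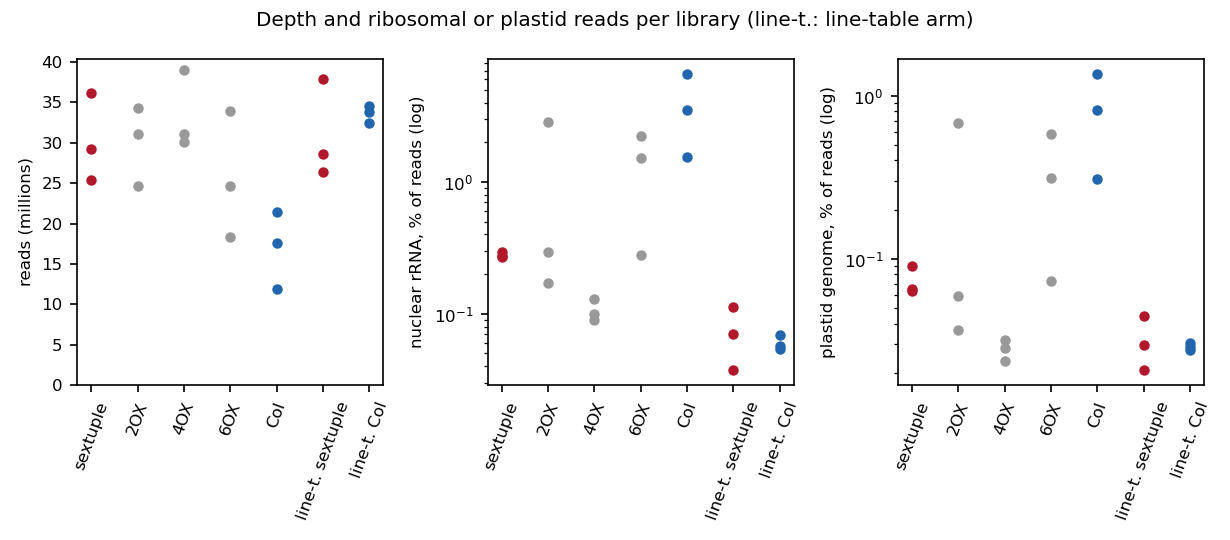
Reads per library in M (left), share of reads on nuclear ribosomal RNA regions in percent (middle, log axis) and share on the plastid genome in percent (right, log axis), for each genotype of the AA-table arm and for sextuple and Col of the line-table arm (line-t.). Each point is a library. The 3 Col libraries of the AA-table arm lie at 1.54 to 6.64% ribosomal reads, above the 3 sextuple libraries of the same arm at 0.271 to 0.293%.

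The targeted genes were examined first. Values below are reads divided by 1 set of size factors over the 6 libraries, called normalized reads, and log2 fold changes are sextuple over Col on the log2(value + 1) scale. MCU6 had 303, 323 and 407 normalized reads in sextuple, against 692, 586 and 674 in Col. Every sextuple library was below every Col library, and the difference of -0.92 on the log2 scale passed the test (SE 0.18, limma adjusted p = 0.032); the value in the line-table arm was -1.63 (limma adjusted p = 0.024). The call was lost when sextuple replicate 2 or any of the Col libraries was left out, with values of -0.88 to -1.0. With the overexpressors in 1 fit, MCU6 was also below Col in 2OX, at -0.80 (limma adjusted p = 0.00070), and in 4OX, at -0.55 (limma adjusted p = 0.017), short of the fold of 1.5 asked of a call. It was 0.92 above Col in 6OX, which carries its transgene. The sextuple line was not called lower than 2OX (-0.12, limma adjusted p = 0.63) or 4OX (-0.37, limma adjusted p = 0.41). MCU1 had 64.0, 56.8 and 133 in sextuple and 157, 175 and 169 in Col, a log2 fold change of -1.08 that did not pass the test (limma adjusted p = 0.13). MCU4 was hardly present, with 0, 6.6 and 6.7 in sextuple and 28.5, 16.5 and 26.6 in Col (log2 fold change -2.65, limma adjusted p = 0.14).

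The other uniporter genes were not called. MCU2, whose insertion is in the promoter, had 359, 438 and 472 in sextuple and 293, 286 and 429 in Col. The groups overlapped (log2 fold change 0.35, limma adjusted p = 0.44). MCU3 had 809, 747 and 848 in sextuple and 917, 1120 and 883 in Col (-0.27, limma adjusted p = 0.41), and MICU had -0.25 (limma adjusted p = 0.50). Reads outside the insertion of an exon allele can still be counted. The remaining gene, MCU5, was not among the genes with values for both genotypes and was not tested.

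Of 22250 genes tested, 426 differed by more than 1.5-fold at a limma adjusted p below 0.05, 1.91% of those tested, and are referred to as called. 261 were higher in sextuple (1.17%) and 165 lower (0.742%), and 3655 genes had an unadjusted p under 0.05. A positive difference, called or not, was found in 50.5% of the genes tested. The 261 rises were all in nuclear genes. Of the 165 falls, 59 lay in the plastid genome, 11 in the mitochondrial genome, 4 in nuclear ribosomal RNA regions and 2 in nuclear copies of organelle DNA, which left 89 other nuclear genes. With nuclear genes alone in the scaling and the test, 272 genes were called, 215 higher and 57 lower. The number of calls rested on single libraries. It was 6 without sextuple replicate 2, 17 without Col replicate 1, 142 without Col replicate 2 and 162 without Col replicate 3, against 1039 without sextuple replicate 1 and 893 without sextuple replicate 3.

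Low-oxygen genes rose, and their list had the highest median of the gene lists examined. All 15 members of the hypoxia list had higher means in sextuple. 7 of 15 were called higher and none lower, where 1.17% of all genes tested were called higher and 0.742% lower. 13 of 15 had no overlap between the groups, where 21.5% of all genes tested had none. The median log2 fold change of the list was 1.11, beside 0.0045 over all genes. The members called were SAD6, SUS4, ADH1, LBD41, PDC1, PCO2 and PCO1. With a library left out all 15 stayed higher and the median was 0.93 to 1.35. The number called was 1 without sextuple replicate 2 or Col replicate 1, 4 without Col replicate 2 and 11 without sextuple replicate 3. The totals over all genes in these 4 cases were 6, 17, 142 and 893, so the member counts moved with them.

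The promoters of 4 called members with a motif before the gene start are shown, because low-oxygen promoters are known for short shared motifs. Each is the 250 bases before the annotated gene start in RefSeq's TAIR10.1 assembly, 5′ to 3′ on the gene's strand. Capitals mark a G-box (CACGTG) or the motif AAACCA, known from the anaerobic response element of ADH1. The other called members, SUS4, PCO1 and PCO2, held AAACCA only after the start. They are not shown, though SUS4 had a larger rise than ADH1, LBD41 and PDC1.
ADH1, chr1:28975005-28975254, plus strand: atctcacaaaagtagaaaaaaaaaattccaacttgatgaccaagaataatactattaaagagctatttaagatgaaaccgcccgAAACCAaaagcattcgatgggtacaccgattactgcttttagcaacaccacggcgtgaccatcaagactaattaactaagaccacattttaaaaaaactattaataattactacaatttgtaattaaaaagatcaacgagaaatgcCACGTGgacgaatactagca
PDC1, chr4:15954804-15955053, minus strand: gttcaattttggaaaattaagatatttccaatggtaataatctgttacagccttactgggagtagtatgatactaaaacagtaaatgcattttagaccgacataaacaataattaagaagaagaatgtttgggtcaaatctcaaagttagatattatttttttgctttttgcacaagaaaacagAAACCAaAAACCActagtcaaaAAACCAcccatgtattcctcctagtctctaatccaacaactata
LBD41, chr3:538127-538376, minus strand: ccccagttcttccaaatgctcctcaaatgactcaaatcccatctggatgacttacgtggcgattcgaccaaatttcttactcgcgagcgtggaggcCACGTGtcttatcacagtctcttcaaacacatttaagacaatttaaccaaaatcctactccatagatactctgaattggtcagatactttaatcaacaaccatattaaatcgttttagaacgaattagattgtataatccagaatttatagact
SAD6, chr1:16577271-16577520, plus strand: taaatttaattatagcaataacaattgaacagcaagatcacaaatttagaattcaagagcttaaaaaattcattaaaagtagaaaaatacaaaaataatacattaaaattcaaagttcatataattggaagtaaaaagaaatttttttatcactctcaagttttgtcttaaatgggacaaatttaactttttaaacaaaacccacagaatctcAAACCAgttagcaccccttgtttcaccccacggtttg

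Over a window of 250 bases before to 50 after the start, searched on both strands, AAACCA was present in 8 of the 15 hypoxia promoters (53.3%) and in 32.0% of 22040 nuclear promoters. PDC1 held 3 copies. A G-box was present in 3 of 15 (20%), namely ADH1, LBD41 and PDC2, and in 8.45% of all. These are matches of letters, chosen with the results known, and no test was made of them.

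The fermentation enzymes showed clear separation. ADH1, which reduces acetaldehyde to ethanol, had 12127, 17507 and 12209 normalized reads in sextuple, against 4016, 3145 and 5613 in Col. PDC1, which makes acetaldehyde from pyruvate, had 12318, 17518 and 9487 in sextuple and 4812, 3870 and 6882 in Col. Replicate 2 was the highest sextuple library for both genes, and neither gene's groups overlapped. Log2 fold changes were 1.73 (SE 0.25, limma adjusted p = 0.013) for ADH1 and 1.33 (SE 0.27, limma adjusted p = 0.041) for PDC1. PDC2, the second decarboxylase, and LDH1, lactate dehydrogenase, had positive differences of 0.54 and 0.43 that did not pass (limma adjusted p = 0.095 and 0.25).

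Sucrose synthases cleave sucrose at a low cost in energy. SUS4 had 1028, 1162 and 503 normalized reads in sextuple, against 180, 159 and 236 in Col, with replicate 3 the lowest sextuple library and still above all of Col. The difference was 2.15 (SE 0.30, limma adjusted p = 0.013). The value of SUS1 was 0.69 (limma adjusted p = 0.11). SAD6, a stearoyl-acyl carrier protein desaturase of the core low-oxygen set, had 5210, 7968 and 5711 in sextuple and 829, 881 and 1375 in Col. It had the largest rise of the list, 2.63 (SE 0.23, limma adjusted p = 0.0030).

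Among regulators, LBD41, a LOB-domain transcription factor, had 5953, 8153 and 7274 in sextuple and 2324, 1978 and 2958 in Col (log2 fold change 1.57, SE 0.20, limma adjusted p = 0.011). The oxygen-sensing oxidases PCO1 and PCO2 rose by less, with log2 fold changes of 0.74 and 0.98 (limma adjusted p = 0.039 for each). The group VII factors HRE1 and HRE2 did not pass, with 0.75 (limma adjusted p = 0.28) and 1.18 (0.052). HRA1, a trihelix repressor that restrains the low-oxygen response, had 1136, 1331 and 698 in sextuple and 206, 277 and 661 in Col, a difference of 1.60 (limma adjusted p = 0.072), with Col replicate 3 close to the lowest sextuple library. PGB1, a phytoglobin that scavenges nitric oxide, had 22848, 33750 and 45553 in sextuple and 15253, 13255 and 17387 in Col (1.11, limma adjusted p = 0.087), and the ethylene receptor ETR2 overlapped between the groups (0.36, limma adjusted p = 0.48).

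In the line-table arm, all 15 members had lower means in sextuple than in Col. 4 were called lower there (SUS4, HRE1, HRA1 and ETR2) and none higher, with a median of -0.73; 0.768% of the 23166 genes tested in that arm were called lower, 0.76% higher and 1.53% in either direction. On the scale of the 12 libraries together, ADH1 had 16246, 23101 and 16155 in sextuple and 5277, 4097 and 7345 in Col of the AA-table arm, and 3777, 6355 and 5163 in sextuple and 13860, 36613 and 6344 in Col of the line-table arm. The Col library with 36613 is replicate 2 of the line-table arm, which was also the highest of its group for SUS4, SAD6 and PDC1. The sign of the difference between sextuple and Col thus changed between the arms for each of the 15 genes.

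A test of that difference, the interaction of genotype and arm over 12 libraries, was called at a limma adjusted p under 0.05 for 8 of the 15 members (SUS4, ADH1, SAD6, PDC1, HRA1, LBD41, PCO2 and PCO1), where 0.813% of 22638 genes were called. SUS4 had the largest value, a log2 value of 4.62 (limma adjusted p = 0.032), and ADH1 had 3.32 (limma adjusted p = 0.039). These calls rested on which libraries were used. No member was called without replicate 1 of every group or without replicate 2, and all 15 were called without replicate 3. The genes called in all were 0 without replicate 1, 1 without replicate 2 and 2915 without replicate 3, so the member counts moved with the total. The median difference of the list was 2.00, 1.28 and 2.24 in these cases.

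**Figure D2:**
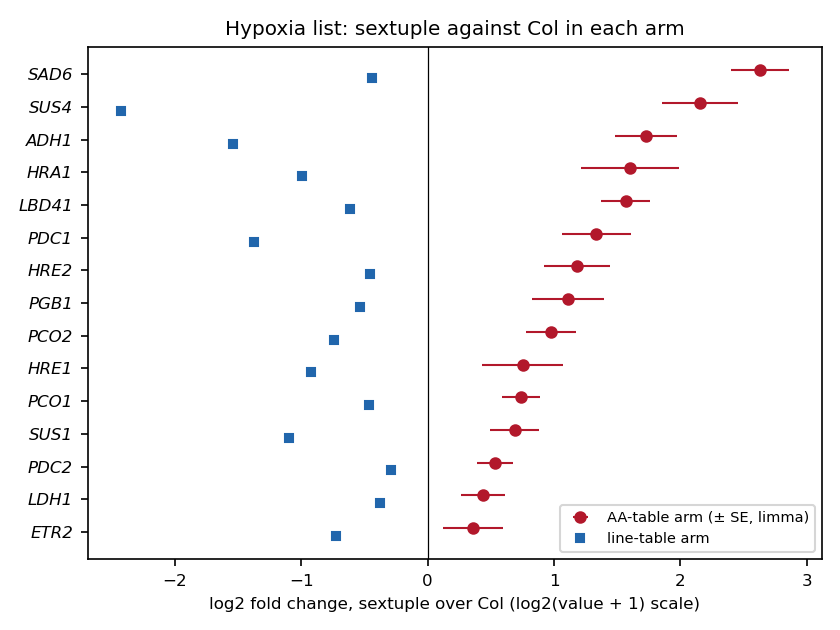
Log2 fold change of sextuple over Col for the 15 genes of the hypoxia list, in the AA-table arm (circles, with limma's SE) and the line-table arm (squares). All 15 circles lie right of 0 and all 15 squares left of it, and SUS4 is farthest apart, at 2.15 and -2.43.

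Changes across the arms were also seen within a genotype. In sextuple the AA-table arm exceeded the line-table arm by 1.87 for ADH1 (limma adjusted p = 0.0057) and 2.15 for SUS4 (limma adjusted p = 0.0049), while in Col the value was -1.45 for ADH1 (limma adjusted p = 0.036) and -2.47 for SUS4 (limma adjusted p = 0.0033). For SAD6 the value was 0.92 in sextuple (limma adjusted p = 0.12) and -2.19 in Col (limma adjusted p = 0.0023). The arms differ in AA by the labels in either reading, and the rRNA share of Col differs between them too.

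The low-oxygen genes were above Col in all the uniporter lines of the AA-table arm. In a fit of its 15 libraries, in which the lines share the Col libraries, the list's median over Col was 1.16 in 2OX, 1.15 in 4OX and 0.86 in 6OX, with 10, 13 and 8 members called higher. Of all genes, 8.54% were called higher in 2OX, 3.53% in 4OX and 2.79% in 6OX. ADH1 had 14790, 21379 and 14903 in sextuple, 13006, 14131 and 12308 in 2OX, 23546, 31979 and 17818 in 4OX, 15266, 22789 and 11424 in 6OX and 4909, 3817 and 6781 in Col. Col was the group below the others. The sextuple line set directly against each overexpressor had list medians of 0.03 against 2OX, -0.32 against 4OX and 0.08 against 6OX, with 2, 0 and 0 members called, where 7.45%, 0.121% and 0.525% of all genes were called in those comparisons. The 2 against 2OX, out of 15 and in opposite directions, were LDH1, at -1.09 (limma adjusted p = 0.00032), and PCO2, at 0.74 (limma adjusted p = 0.036).

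**Figure D3:**
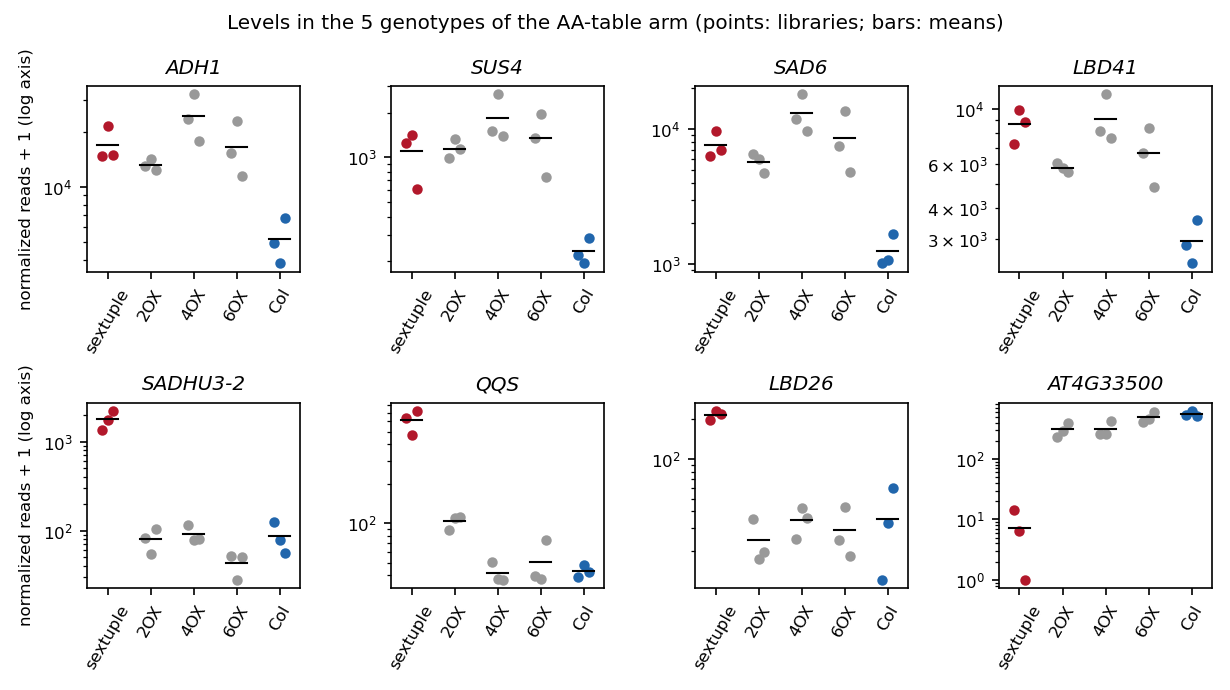
Normalized reads plus 1 (log axis) of 8 genes in the 15 libraries of the AA-table arm, by genotype; points are libraries and bars means. ADH1, SUS4, SAD6 and LBD41 are lowest in Col, while SADHU3-2, QQS and LBD26 are highest and AT4G33500 is lowest in the sextuple line.

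Another set of genes differed by genotype in the same direction in both arms. 20 genes were called in both, which is 4.69% of the calls here and 5.65% of those in the line-table arm. Of all genes tested, 1.91% were called here and 1.53% in the line-table arm. 19 of the 20 went the same way, 10 higher and 9 lower, and the exception was SUS4. The 9 falls include the plastid genes ATCG00180 and ATCG00170. The 2 arms share no library. SADHU3-2, a locus of the Sadhu family of non-coding retrotransposons, had 1112, 1439 and 1811 normalized reads in sextuple, against 101, 64.1 and 45.6 in Col. All sextuple libraries were more than 10 times above the highest Col library. The difference was 4.40 (SE 0.29, limma adjusted p = 0.00032) here and 4.92 in the line-table arm, and the call held with each library left out in turn.

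QQS, an orphan gene known for altering starch and protein content, had 522, 387 and 590 in sextuple, against 31.1, 38.8 and 34.2 in Col (3.79, SE 0.25, limma adjusted p = 0.00032), also a call that held with each library left out. AT5G35760, annotated as a beta-galactosidase related protein, had 148, 176 and 125 in sextuple, against 2.6, 14.6 and 13.3 in Col (4.01, SE 0.54, limma adjusted p = 0.013). LBD26, a LOB-domain factor, had 162, 189 and 178 in sextuple, against 9.1, 26.2 and 49.4 in Col (2.88, SE 0.50, limma adjusted p = 0.024). None of these genes overlapped between the groups, and each also differed from 2OX, 4OX and 6OX (limma adjusted p of 0.037 or less). SADHU3-2 and LBD26 were not called between these lines and Col; QQS in 2OX, at 87.6, 108 and 111 on the scale of the 15 libraries, was above Col (limma adjusted p = 0.0047).

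AT4G33500, a protein phosphatase 2C gene, moved the other way and by the most. It had 10.9, 4.4 and 0 in sextuple, against 437, 512 and 422 in Col (-6.84, SE 0.73, limma adjusted p = 0.011), and it was -6.25 in the line-table arm. AT3G04360, a calcium-dependent lipid-binding family gene, had 25.4, 31.3 and 38.0 in sextuple and 122, 138 and 135 in Col (-2.04, SE 0.29, limma adjusted p = 0.013). Unlike AT4G33500 it was low in all the lines: over Col it was -2.63 in 2OX, -2.64 in 4OX and -2.23 in 6OX, and the sextuple line did not differ from any of them beyond the test (limma adjusted p = 0.30 to 0.80). The other genes called in both arms included MCU6 and CSD1, the cytosolic copper/zinc superoxide dismutase. CSD1 had 9690, 11763 and 16687 in sextuple and 6242, 5937 and 5710 in Col (1.06, limma adjusted p = 0.042). Among the shared rises, AT5G10160 and AT3G21030 were also called higher than Col in 2OX, 4OX and 6OX. AT5G10160 had 1.77, 1.88 and 2.02 there, and AT3G21030 had 1.90, 1.57 and 1.82.

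**Figure D4:**
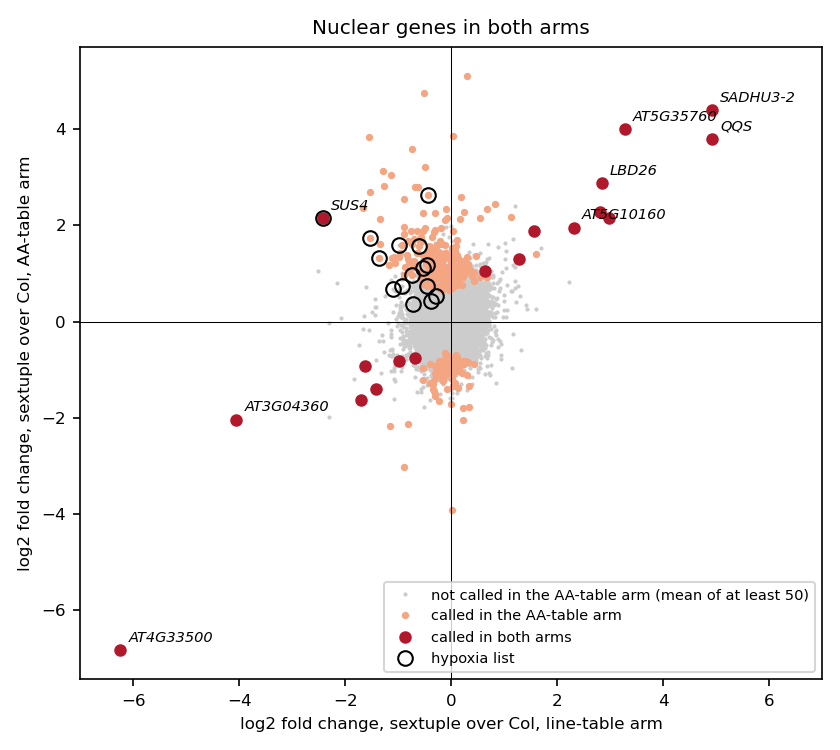
Log2 fold change of sextuple over Col in the line-table arm (x axis) and in the AA-table arm (y axis) for nuclear genes; grey points are uncalled genes with a mean of at least 50, orange points genes called in the AA-table arm, red points genes called in both, and open circles the hypoxia list. SADHU3-2 and QQS lie at the upper right, AT4G33500 at the lower left, and the open circles at the upper left.

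Of the 261 genes called higher here, 188 had a lower mean in sextuple than in Col there, as had 11368 of the 22114 genes tested in both arms. Of the 91 nuclear genes called lower here, 37 had a higher mean in sextuple there. LBD40, another LOB-domain factor, had 113, 256 and 148 in sextuple and 7.8, 20.4 and 28.5 in Col (3.21, limma adjusted p = 0.016), with a difference between the arms of 3.77 (limma adjusted p = 0.036). AT3G29970, which encodes a B12D protein, had 727, 1295 and 607 in sextuple and 86.9, 57.3 and 199 in Col (3.04, limma adjusted p = 0.013). AT5G10040, of unknown function, and AT2G44798, a natural antisense RNA, had 3.13 and 2.81 (limma adjusted p = 0.025 and 0.035). LBD40, AT3G29970, AT5G10040 and AT2G44798 were also called higher than Col in 2OX, 4OX and 6OX. LBD40 had 2.32, 3.97 and 3.46 there, and AT3G29970 had 1.83, 3.82 and 3.07. The sextuple line did not differ from any overexpressor for these genes (limma adjusted p of 0.096 or more). AT2G44798 overlaps AT2G44800, and without a stated strand setting reads of the pair cannot be told apart.

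Defence and rapid stress regulators rose in part. 4 of 19 rapid stress factors were called higher (ZAT8, ZAT10, WRKY6 and WRKY53) and none lower, and 18 of 19 had positive differences, with a median of 0.56. Over all genes, 1.17% were called higher and 50.5% had positive differences. WRKY53, a regulator of senescence and defence, had 297, 289 and 340 in sextuple and 157, 139 and 110 in Col (1.20, limma adjusted p = 0.024). 2 of 11 salicylate and defence genes were called higher, CBP60G and FRK1, with a list median of 0.74. CBP60G, an activator of salicylate synthesis, had 886, 918 and 767 in sextuple and 301, 310 and 365 in Col (1.4, SE 0.16, limma adjusted p = 0.011), and its difference between the arms was 1.91 (limma adjusted p = 0.032). On the jasmonate list 1 of 20 was called, AOC3, an allene oxide cyclase (0.80, limma adjusted p = 0.042), with a list median of 0.13. In the line-table arm these 3 lists had negative medians: -0.33 for rapid stress factors, -0.16 for salicylate and defence genes and -0.38 for jasmonate genes. Positive differences there were found in 3 of 19, 3 of 10 and 3 of 20 members tested. In 2OX, 4OX and 6OX, WRKY53 had 1.64, 0.91 and 1.11 over Col, CBP60G 0.60, 1.11 and 1.26, and FRK1 0.95, 1.32 and 1.45. These were all called. AOC3, at 0.09, 0.41 and 0.29, and ZAT10 were not called over Col in any of these lines. The sextuple line was called higher than 2OX for CBP60G (0.80, limma adjusted p = 0.0080), AOC3 (0.72, 0.0090) and ZAT10 (0.62, 0.034). None of these genes was called between sextuple and 4OX or 6OX.

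Some genes of detoxification and calcium handling also changed. 3 of 24 tau glutathione transferases were called higher, GSTU8, GSTU11 and GSTU17, with a median of 0.44 and GSTU11 at 1908, 2184 and 1563 in sextuple and 620, 589 and 904 in Col (1.43, limma adjusted p = 0.013). On the list of calcium sensors and pumps, 2 of 29 were called higher and 2 lower. Over all genes, 1.17% were called higher and 0.742% lower. The median of the calcium list was 0.34 here and -0.27 in the line-table arm, with 22 of 29 positive here and 6 of 29 there. The calmodulin-like CML46 had 273, 510 and 537 in sextuple and 103, 108 and 192 in Col (1.71, limma adjusted p = 0.031), and CML38, which is itself known as a low-oxygen gene, had 1.21 (limma adjusted p = 0.022). CAX1, a vacuolar calcium/proton exchanger, had 4004, 4109 and 5373 in sextuple and 8569, 9949 and 8035 in Col (-0.98, limma adjusted p = 0.031), and the vacuolar calcium pump ACA4 had -0.88 (limma adjusted p = 0.048). WRKY63, a regulator of mitochondrial retrograde genes, was the 1 of 10 retrograde regulators called, with 573, 691 and 744 in sextuple and 331, 290 and 258 in Col (1.19, limma adjusted p = 0.016). The overexpressors shared some of these changes. In 2OX, 4OX and 6OX, CAX1 had -0.75, -0.69 and -0.76 over Col and WRKY63 had 1.18, 0.88 and 1.60, all called. GSTU11 was called in 4OX (1.18) and 6OX (1.43), and CML46 in 4OX alone (1.68). GSTU11 was higher in sextuple than in 2OX (0.93, limma adjusted p = 0.022). No other comparison of sextuple with an overexpressor was called for these genes.

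Genes of the Rubisco small subunit fell. On the list of light harvesting and Rubisco, 3 of 23 were called lower, all small subunits of Rubisco (RBCS1B, RBCS2B and RBCS3B), and none higher, with a list median of -0.37. The share called lower over all genes was 0.742%. RBCS1B had 649, 395 and 614 in sextuple and 2093, 1711 and 1797 in Col (-1.78, SE 0.20, limma adjusted p = 0.011), and its value in the line-table arm was 0.33, a difference between the arms of -2.07 (limma adjusted p = 0.032). RBCS1A, on the list of shoot markers too, had 41104, 24321 and 29228 in sextuple and 73147, 64290 and 56792 in Col without passing (-1.06, limma adjusted p = 0.11). The RBCS genes are near-identical in sequence, and the counting could have split their reads. RBCS1B was also lower in 2OX, 4OX and 6OX than in Col, by -1.78, -1.48 and -1.13. The light-harvesting genes overlapped between the genotypes for most members, with sextuple replicate 3 and Col replicate 1 the high libraries of their groups. The lower shoot marker sums of sextuple are not a separate measure beside this result, because RBCS1A made up most of each sum. On the scale of the 12 libraries, RBCS1A had 32092 to 55065 in sextuple, where the shoot markers summed to 44624 to 73457. In Col it had 74308 to 96112, where they summed to 92333 to 126390. What part shoot content had in the fall was not tested.

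Several other nuclear falls were large. AT5G14700, of a NAD(P)-binding family, had 27.8, 53.9 and 62.7 in sextuple and 284, 176 and 165 in Col (-2.13, limma adjusted p = 0.021). It was also lower in sextuple than in 2OX, 4OX and 6OX (limma adjusted p of 0.0013 or less). AT1G49200, a RING/U-box gene, had -1.80 (limma adjusted p = 0.044). Over Col it was -2.15 in 2OX, -1.47 in 4OX and -1.28 in 6OX (limma adjusted p = 0.00072, 0.019 and 0.059). For AT1G49200 the sextuple line did not differ from these lines beyond the test (limma adjusted p of 0.45 or more). AT1G25098, an antisense RNA that overlaps AT1G25097, had -3.92 (limma adjusted p = 0.022). AT2G07727 and AT2G07712 are nuclear copies of mitochondrial sequence, and their values of -3.02 and -2.17 cannot be told apart from those of the mitochondrial genome. On the organelle genomes, 59 of 105 plastid genes were called lower with a median of -2.64, and 11 of 74 mitochondrial genes with a median of -1.17. The 7 genes in nuclear ribosomal RNA regions had a median of -2.73, with 4 called lower. The share called lower over all genes was 0.742%. These falls go with the higher rRNA and organelle shares of all 3 Col libraries given above. They were not particular to the sextuple line: over the same Col libraries the plastid median was -2.45 in 2OX, -3.61 in 4OX and -1.24 in 6OX.

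No gene tested on the lists of alternative oxidases and mitochondrial stress markers was called. AOX2 was not among the genes tested. AOX1A, the stress-induced alternative oxidase, had 16318, 19269 and 20682 in sextuple and 14433, 14197 and 12818 in Col. The groups did not overlap, but the log2 fold change of 0.44 did not pass (limma adjusted p = 0.32). AOX1D had 2507, 2693 and 2266 in sextuple and 2118, 1662 and 1573 in Col (0.49, limma adjusted p = 0.18), and AOX1B and AOX1C had -0.02 and -0.06. All 19 mitochondrial stress markers had positive differences with a median of 0.39, none was called, and the highest was HSP23.6, a mitochondrial small heat shock protein, at 0.66 (limma adjusted p = 0.14). Positive differences made up 50.5% over all genes. The 15 small heat shock proteins had a median of 0.43 and none called. On the scale of the 12 libraries, the alternative oxidase genes summed to 25452 to 30584 in sextuple and 19101 to 21977 in Col of the AA-table arm, and to 6443 to 12007 in sextuple and 8384 to 12841 in Col of the line-table arm; no sample was assigned a treatment from these values.

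Lists from the study, which were chosen on libraries of this series and are not independent evidence of a direction, had no member called, and most of their medians were above 0. The exception was the plastid chaperones, at -0.16 with 5 of 14 positive. 120 of 125 cytosolic ribosomal protein genes had positive differences with a median of 0.32, beside 50.5% positive over all genes, and none was called. In the line-table arm 24 were called higher, beside 0.76% of all genes there, with a list median of 0.47. The shift here rested on sextuple replicate 3, without which the median was 0.07. Nuclear genes of oxidative phosphorylation had 66 of 75 positive with a median of 0.27, which was 0.04 without that library, and the mitochondrial ribosome list had a median of 0.26. COX X1-2, a complex IV subunit and the largest difference of its list, had 8688, 11808 and 23157 in sextuple and 7359, 6057 and 4692 in Col (1.17, limma adjusted p = 0.11). A telo box (AAACCCTA) was present in 61 of the 125 ribosomal protein promoters (48.8%), beside 5.71% of all, and a site II element (TGGGCC or TGGGCT) in 99 of 125 (79.2%), beside 24.4%.

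The lists without a called member and not yet described had medians between -0.19 and 0.37. NDA2, an alternative NADH dehydrogenase of the inner mitochondrial membrane, had 1105, 1159 and 1236 in sextuple and 758, 809 and 750 in Col. Its groups did not overlap, but 0.59 did not pass (limma adjusted p = 0.065), and its list had a median of 0.03. Heat shock factors had a median of -0.08, regulators of stress in the endoplasmic reticulum 0.13, clock genes 0.09 and energy starvation genes -0.19. The member with the largest difference among the endoplasmic reticulum regulators was BIP3, a chaperone gene of that compartment, with 159, 80.8 and 51.3 in sextuple and 38.9, 31.1 and 34.2 in Col (1.31, limma adjusted p = 0.15). Lists of the study covering mitochondrial import, mitochondrial proteases and the chaperones of the cytosol, endoplasmic reticulum, mitochondria and plastids had medians of 0.37, 0.18, 0.09, 0.25, 0.19 and -0.16. On the root marker list, EXPA18, a root hair expansin, was the 1 of 13 called, with 53.7, 68.5 and 81.8 in sextuple and 6.5, 14.6 and 22.8 in Col (2.28, limma adjusted p = 0.042), and the list median was 0.53. The share called higher over all genes was 1.17%.

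**Figure D5:**
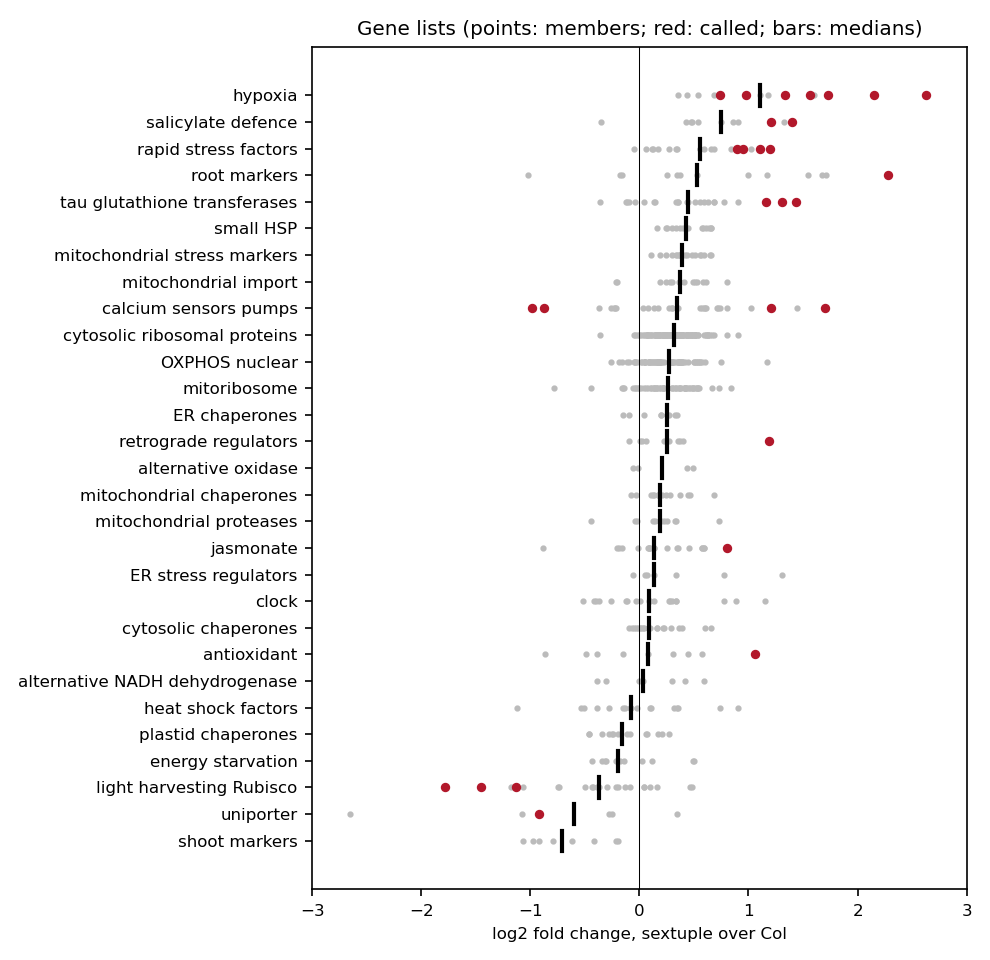
Log2 fold change of sextuple over Col for the members of 29 gene lists in the AA-table arm, ordered by list median; grey points are members, red points members called, and bars medians. The hypoxia list is at the top with a median of 1.11 and 7 members called, and the shoot markers at the bottom with -0.71 and none called.

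RBCS1B, JRG21, AT1G33055 and 4CL5 had the lowest unadjusted p of the difference between the arms. Their limma adjusted p of 0.032 was the lowest too, but 60 genes shared it, SUS4, LBD41, PCO1 and CBP60G among them. JRG21, a jasmonate-regulated oxygenase gene, had 399, 356 and 321 in sextuple and 169, 201 and 251 in Col here (0.81, limma adjusted p = 0.086), while its log2 fold change in the line-table arm was -2.16 (limma adjusted p = 0.024). AT1G33055, of unknown function, had 1331, 1296 and 1307 in sextuple and 651, 573 and 982 in Col here (0.87, limma adjusted p = 0.058), and -1.14 in the line-table arm. 4CL5, a 4-coumarate:CoA ligase of phenylpropanoid synthesis, had 381, 335 and 349 in sextuple and 162, 172 and 137 in Col (1.18, limma adjusted p = 0.018), and -0.33 in the line-table arm. For the last 3 the sextuple line was above Col in the AA-table arm and below it in the line-table arm, as for the low-oxygen genes.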

How the data were processed

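The authors mapped RNA sequencing reads of 10-day-old whole seedlings to TAIR10; the submitters' processing notes name Bowtie 0.12.2. The deposited tables hold a signal per gene, which is read counts divided by size factors, and not the RPKM that the methods assign to Cufflinks. Their fold change and p-value columns were not used. The counting tool and strand setting are not given in the sources used here. Each column was divided by what 1 read is worth, and 1266084 of 1266084 quotients were whole (tolerance 0.02 reads). The 22806 genes in both tables were joined and scaled by median-of-ratios factors over 6 libraries; 22250 with a mean of at least 1 were tested.

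limma 3.58.1 with a mean-variance trend on log2(value + 1) was run in R 4.3.3, two-sided, with Benjamini-Hochberg adjustment over all genes, with a gene called below an adjusted p of 0.05 if its fold exceeded 1.5. edgeR 4.0.16, run on the recovered reads, called 464 genes. In simulated data for the sextuple against Col comparison (22250 genes), limma called 42 of 100 genes changed by a fold of 2, 96 of 100 changed by a fold of 4, and 8 unchanged genes. The changed genes were drawn from those with a mean of at least 50. Each gene was simulated on its own, without shifts shared by the genes of a library. These counts describe that setting and not the error rate of the calls here. Depth was 11.8 to 36.1 M reads (M, 1e6 reads). The p-values measure the spread between 3 libraries of a group, which the labels do not tie to separate cultures. Chi-square statistics between libraries of a group were 30.9 to 145 per degree of freedom, so none was a duplicate.

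Named genes were all uniporter and alternative oxidase genes, the 8 rising and 8 falling nuclear genes with the largest called change and a mean of at least 50 without overlap, the largest change of each gene list, and the 4 genes with the lowest adjusted p of the difference between arms, with ties broken by the unadjusted p. Other members of the lists are named as counts required and were chosen after their values were seen. The libraries and gene lists were chosen with earlier results of these data known. Promoters came from the RefSeq TAIR10.1 genome. Alternatives tried were other scalings, filters, tools, joint fits, a replicate block, thinning all libraries to the lowest total, a correction for length and GC content, and leaving out each library.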

Additional observations from a re-analysis of the deposited data

Results flagged for a closer look

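The difference between sextuple and Col in the AA-table arm was tested against that in the line-table arm by the interaction of genotype and arm, and 184 of 22638 genes passed a limma adjusted p of 0.05, of which 133 were positive and 51 negative, with 3513 at an unadjusted p under 0.05. Among the hypoxia genes, the difference of log2 fold changes was 4.62 for SUS4, 3.32 for ADH1, 3.11 for SAD6, 2.75 for PDC1, 2.64 for HRA1, 2.23 for LBD41, 1.765 for PCO2 and 1.25 for PCO1. Outside that list it was 3.77 for LBD40, 2.997 for JRG21, 2.06 for AT1G33055, 1.91 for CBP60G, 1.63 for WRKY53, 1.555 for 4CL5 and -2.07 for RBCS1B. All these passed the test of the difference, and 112 of the 184 genes were also called between sextuple and Col in the AA-table arm. Of the 184 genes, 17 lay in organelle genomes, which goes with the organelle share of the Col libraries.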

How the results depend on the processing

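The 426 calls between sextuple and Col became 2 with no filter on low values, 10 in limma without a trend, 3 when an adjusted p of 0.01 and a 2-fold change were required, 35 with the replicate number as a block, 272 with nuclear genes only, 1156 in DESeq2, 1415 with all 5 genotypes in 1 fit, 1224 with 12 libraries in 1 fit and 1084 with length and GC trends removed, and ran from 6 to 1039 when a library was left out. The share of called genes that were higher in sextuple, 61.3%, was 31.4% with the block and 33.1% to 94.1% when a library was left out, with the lowest without Col replicate 2 and the highest without Col replicate 1. The 7 hypoxia genes called became 0 with no filter and without a trend, 11 in DESeq2, with 5 genotypes in 1 fit and with length and GC trends removed, 1 at the stricter thresholds and with the block, and 1 to 11 when a library was left out; their 15 differences stayed positive in every alternative and the median was 0.93 to 1.35. The 184 genes of the difference between arms became 113 with nuclear genes only, 0 with the replicate block, and 0 without replicate 1, 1 without replicate 2 and 2915 without replicate 3 of all groups. The cause of each change was not tested. Deviations of same-numbered libraries from their group means correlated at -0.28, 0.04 and -0.40 over 16756 genes. Those of differently numbered libraries of the 2 genotypes correlated at -0.43 to 0.46. Deviations within a group sum to 0, which ties these values to each other. They cannot show whether the replicate numbers mark a batch. The 27 named genes that were called kept their sign in 567 values under the 21 alternatives, and the call in 395 of them. With a library left out a change of sign was hardly possible, since no called gene overlapped between the groups. The same holds for the 13 of 15 hypoxia genes without overlap. The stricter thresholds reuse the main fit and cannot change a sign. The kept signs under these settings are thus no separate support. The Col libraries of the AA-table arm are the shallowest of the 6, which limits low genes most.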
